A study of Mus musculus with 6 samples.

Results

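Reticular niche cell identity genes were followed in 2 sorted fractions of mouse bone marrow stroma. The 10 genes, Lepr, Cxcl12, Kitl, Csf1, Il7, Adipoq, Hp, Ebf1, Ebf3 and Foxc1, were chosen as genes known from the Lepr-expressing, Cxcl12-abundant reticular cells of marrow, and they are 10 of the 19938 genes measured. Each was read by 1 probe set, the only one with its symbol alone. Cells were dissociated from marrow and sorted straight into lysis buffer as CD45-, Ter119- and CD73+, which removes leukocytes and red cell precursors and keeps cells with the adenosine-making enzyme CD73. They were divided by CD105 (endoglin) into CD73+CD105+ cells (n = 3 arrays) and CD73+CD105- cells (n = 3 arrays). The sources used here do not give strain, age or treatment of the mice. The labels call the samples biological replicates and do not say whether each came from its own animal or pool of animals, so p-values reflect only the spread among these 6 samples. Values are log2 expression values, and every difference is CD73+CD105+ minus CD73+CD105-. Averaged for each gene, the 2 replicate 1 arrays nearly equalled the average of the remaining 4 (SD of the gap 0.0423 over all genes; at least 0.122 for the other 8 cross-group pairs). Among the identity genes this gap was largest in Hp, at 0.18. No label describes this balance. Whether values were adjusted before deposit was not tested, and if they were, p-values from a fit without a replicate 1 term are too small.

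Reticular cells are mesenchymal cells with long processes that surround marrow sinusoids. They are a main source of the chemokine CXCL12 and of stem cell factor, which keep blood stem cells in place and alive, and of cytokines for macrophages and lymphocyte precursors. They also express genes otherwise known from fat cells, and the transcription factors FOXC1 and EBF1 with EBF3 are known from mouse work to maintain this state. Some endothelial cells of marrow also make Cxcl12, Kitl and Csf1.

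Most of the identity genes were higher in CD73+CD105+ cells than in CD73+CD105- cells. Of the 10 genes 6 rose, 0 fell and 4 did not pass, at a Benjamini-Hochberg adjusted p under 0.05 in limma over all genes. Of all genes 1.35% rose and 0.466% fell. The 10 genes and the other gene lists below were chosen with earlier results of these data known. Comparisons of the lists with all genes are therefore descriptions and not independent tests. With a term for replicate 1 in the fit, 1 identity gene passed, Lepr, against 0.476% of all genes that rose. In replicates 2 and 3 alone 0 passed (8 at an unadjusted p under 0.05 in limma), against 0.140% of all genes that rose. The 6 were Lepr (1.91-fold), Cxcl12 (2.48-fold), Kitl (2.41-fold), Csf1 (1.77-fold), Adipoq (2.49-fold) and Ebf3 (1.61-fold). The median difference of the 10 genes was 1.10, and that of all genes was -0.02. In 8 of the 10 genes all 3 CD73+CD105+ arrays lay above all 3 CD73+CD105- arrays, as they did in 10.7% of all genes. Il7 and Foxc1 had overlapping groups, and Foxc1 was the one gene with a negative difference. In these bulk samples, fewer cells of a type and less RNA per cell cannot be told apart. The count changed as single arrays were left out. Leaving out replicate 1 of either CD73+CD105+ or CD73+CD105- gave 1. Leaving out each of the other arrays gave 4 (CD73+CD105+ replicates 2 and 3, CD73+CD105- replicate 2) or 6 (CD73+CD105- replicate 3). The count over all genes also fell when a replicate 1 array was dropped, from 363 to 86 (CD73+CD105+) or 87 (CD73+CD105-). In all 6 fits, 8 to 10 identity genes had an unadjusted p under 0.05 in limma. Lepr passed in all 6 of these fits.

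**Figure D1:**
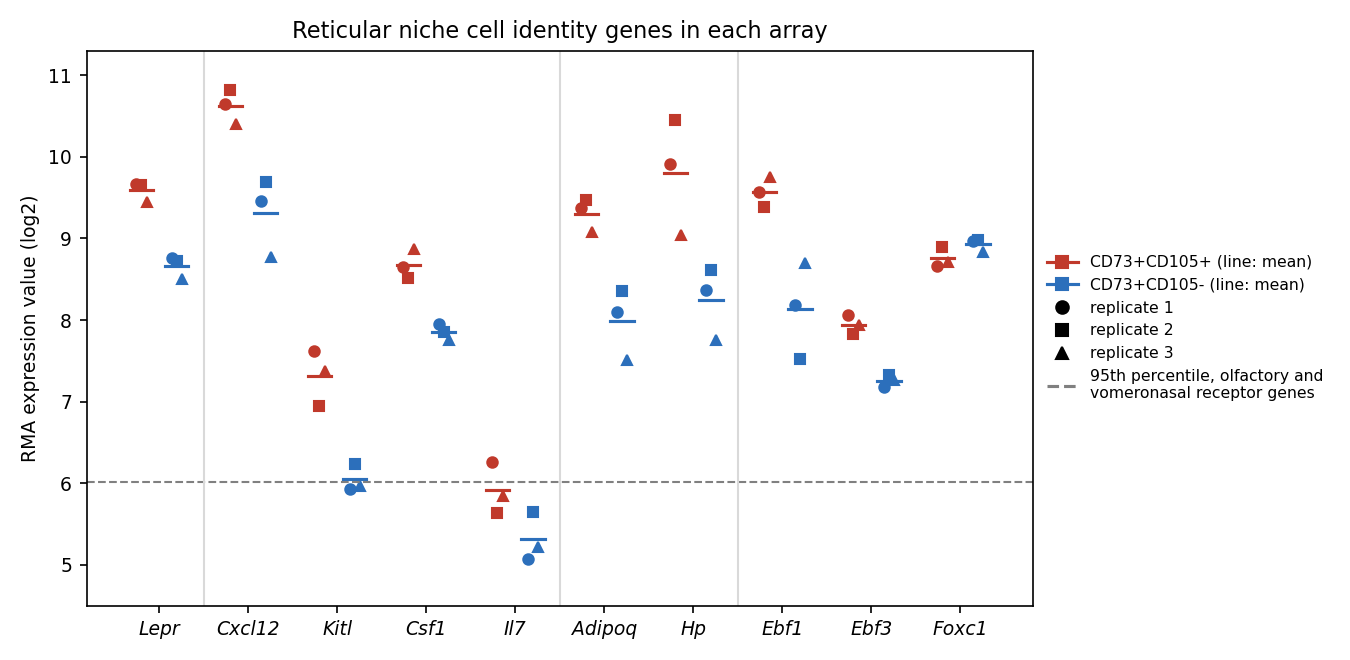
Expression value (log2, vertical axis) of each identity gene in each of the 6 arrays, CD73+CD105+ in red and CD73+CD105- in blue, with marker shape for the replicate number and a line for the mean of 3. Red points lie above blue ones without overlap in 8 of 10 genes, and the dashed line (6.02) is the level below which 95% of 1179 odorant and pheromone receptor genes lay.

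Promoter sequence was read for the identity genes, to describe their start regions. RefSeq (GRCm38.p6) gave 10 windows, 250 bases before to 50 after the start, for 8 of the 10 genes (2 each for Lepr and Ebf1). They were searched on both strands for CCCNNGGG, the palindromic core bound by EBF factors, for the GC box (GGGCGG), for the forkhead motif (GTAAACA) and for the TATA element (letters TATAAA). The EBF core stood in 13.7% of 32851 promoters of this length and in those of 2 of the 8 genes, Csf1 and Ebf3. A TATA box stood in 13.6% of promoters and here in that of Kitl. A GC box stood in 35.7% and here in 6 genes, Lepr, Cxcl12, Kitl, Csf1, Ebf3 and Foxc1. Of these Foxc1 did not rise, and Adipoq, which rose, had no GC box in its window. Genes were counted if any of their windows matched, whereas the percentages are of single promoters. The forkhead motif stood in 3.65% of promoters and in 0 of the 8 genes, so these letters were not in these windows. The Cxcl12 window lies at chr6:117168285-117168584 (plus strand), that of Kitl at chr10:100015571-100015870 (plus strand), that of Csf1 at chr3:107760420-107760719 (minus strand) and that of Ebf3 at chr7:137314396-137314695 (minus strand). Capitals mark the GC boxes in Cxcl12 on either strand, the TATA box in Kitl, and the EBF core in Csf1 and Ebf3. A match of letters is a description and not a binding site.
Cxcl12: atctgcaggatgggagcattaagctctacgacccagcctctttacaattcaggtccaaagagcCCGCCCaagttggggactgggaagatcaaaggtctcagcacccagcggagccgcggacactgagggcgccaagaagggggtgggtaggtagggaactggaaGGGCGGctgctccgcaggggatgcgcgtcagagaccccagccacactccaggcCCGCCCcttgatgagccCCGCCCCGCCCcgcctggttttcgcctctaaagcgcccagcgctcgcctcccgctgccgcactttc
Kitl: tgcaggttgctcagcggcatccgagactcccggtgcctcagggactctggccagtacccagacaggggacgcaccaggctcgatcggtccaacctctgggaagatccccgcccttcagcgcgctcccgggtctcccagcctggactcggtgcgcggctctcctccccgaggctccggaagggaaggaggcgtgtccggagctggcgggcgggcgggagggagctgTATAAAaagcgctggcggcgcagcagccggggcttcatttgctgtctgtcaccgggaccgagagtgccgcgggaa
Csf1: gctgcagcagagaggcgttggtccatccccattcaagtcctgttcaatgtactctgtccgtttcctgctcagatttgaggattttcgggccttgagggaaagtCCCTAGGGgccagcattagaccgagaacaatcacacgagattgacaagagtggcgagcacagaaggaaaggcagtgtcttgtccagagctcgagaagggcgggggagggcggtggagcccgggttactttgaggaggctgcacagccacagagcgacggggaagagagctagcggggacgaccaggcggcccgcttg
Ebf3: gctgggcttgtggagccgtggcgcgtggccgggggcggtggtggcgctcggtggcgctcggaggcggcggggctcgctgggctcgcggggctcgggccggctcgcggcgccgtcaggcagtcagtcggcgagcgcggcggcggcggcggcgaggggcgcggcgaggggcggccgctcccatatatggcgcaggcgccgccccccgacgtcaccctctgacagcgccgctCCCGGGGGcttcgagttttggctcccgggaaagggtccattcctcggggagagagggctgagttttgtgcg
The TATA box of Kitl began 25 bases before the start. The 5 GC boxes of Cxcl12 began between 187 and 11 bases before it, and the last 2 of them share a base. The EBF core of Ebf3 began 21 bases and that of Csf1 147 bases before the start. No motif searched was shared by all 6 genes that rose.

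Lepr encodes the receptor of the hormone leptin and gives these cells their name. Its values were 9.67, 9.66 and 9.44 in CD73+CD105+ arrays, against 8.76, 8.72 and 8.50 in CD73+CD105- arrays. The groups were apart by more than the spread within either. The difference was 0.93 (SE 0.10, 95% interval 0.69 to 1.17, adjusted p = 0.00869 in limma). The adjusted p with the replicate 1 term was 0.0228. The difference was 0.91 in the replicate 1 arrays, 0.94 in replicate 2 and 0.94 in replicate 3. Of the identity genes, Lepr had the most even difference over the 3 replicate numbers. Over all genes 138 had a larger positive difference and 70 a smaller p-value. Leprot, which lies beside Lepr and encodes a regulator of receptor trafficking, showed a difference of 0.19, which did not pass (adjusted p = 0.476 in limma).

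Cxcl12, the chemokine that holds blood stem cells in marrow, had values of 10.64, 10.82 and 10.40 in CD73+CD105+ arrays, against 9.46, 9.70 and 8.77 in CD73+CD105- arrays. Replicate 3 was lowest in both groups, and its CD73+CD105- value stood well under the other two. The difference was 1.31 (SE 0.23, 95% interval 0.76 to 1.86, adjusted p = 0.0440 in limma), or between 1.69-fold and 3.63-fold. Its call was the least firm of the 6. The adjusted p was 0.0380 without CD73+CD105- replicate 3, and it lost the call without each of the other arrays: 0.140 and 0.114 without replicate 1 of CD73+CD105+ and CD73+CD105-, 0.0910 and 0.0513 without replicate 2 of these groups, and 0.0879 without CD73+CD105+ replicate 3. Quantile normalization of the deposited values a second time gave 0.0590, and the replicate 1 term gave 0.100.

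Kitl, stem cell factor, had values of 7.62, 6.95 and 7.38 in CD73+CD105+ arrays, against 5.93, 6.24 and 5.97 in CD73+CD105- arrays. The CD73+CD105- mean (6.05 ± 0.17, SD, n = 3) was close to 6.02, the level below which lay 95% of the odorant and pheromone receptor genes, which marrow is not thought to use, and the CD73+CD105+ mean (7.32 ± 0.34, SD, n = 3) was above it. RMA compresses differences near background, where a fold such as this one of 2.41 may be understated. The difference was 1.27 (SE 0.18, 95% interval 0.86 to 1.68, adjusted p = 0.0201 in limma), and it was 1.69 in replicate 1, 0.71 in replicate 2 and 1.42 in replicate 3. Kitl lost the call without CD73+CD105+ replicate 1 (0.0517) or 3 (0.0706) and without CD73+CD105- replicate 1 (0.0802) or 3 (0.0544), and with the replicate 1 term (0.0520).

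Csf1, the growth factor of macrophages and osteoclasts, had values of 8.65, 8.51 and 8.87 in CD73+CD105+ arrays, against 7.95, 7.86 and 7.76 in CD73+CD105- arrays. The groups were 0.57 apart at their nearest arrays. The difference was 0.83 (SE 0.11, 95% interval 0.57 to 1.08, adjusted p = 0.0170 in limma). Without CD73+CD105+ replicate 1 the adjusted p was 0.0639, and without CD73+CD105- replicates 1 and 2 in turn it was 0.0561 and 0.0604. With the replicate 1 term it was 0.0546.

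Il7, the cytokine of lymphocyte precursors, was near background. Its values were 6.27, 5.64 and 5.84 in CD73+CD105+ arrays, against 5.07, 5.64 and 5.22 in CD73+CD105- arrays, and both means lay below 6.02. The replicate 2 arrays were level with each other. The difference was 0.60 (SE 0.20, 95% interval 0.14 to 1.07) and did not pass (adjusted p = 0.181 in limma). It was 1.20 in the replicate 1 arrays and 0.31 in replicates 2 and 3 together.

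Adipoq encodes adiponectin, a hormone of fat cells that is also made by reticular stroma. It had values of 9.37, 9.47 and 9.07 in CD73+CD105+ arrays, against 8.10, 8.36 and 7.51 in CD73+CD105- arrays. The lowest CD73+CD105+ array was 0.72 above the highest CD73+CD105- array. The difference was 1.32 (SE 0.22, 95% interval 0.81 to 1.82, adjusted p = 0.0337 in limma). The call was lost without CD73+CD105+ replicate 1 (0.116), 2 (0.0765) or 3 (0.0682) and without CD73+CD105- replicate 1 (0.102), and with the replicate 1 term (0.0821).

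Fat cell markers were set beside Adipoq. Of 11 measured markers 1 rose and 0 fell (2 at an unadjusted p under 0.05 in limma), 4 differences were above 0 and the median was -0.03. The mean level of the list ran from 6.32 to 6.40 in CD73+CD105+ arrays and from 5.96 to 6.08 in CD73+CD105- arrays, a gap carried by Fabp4. Fabp4, the 1 that rose, encodes a fatty acid carrier also known from capillaries (difference 4.12, adjusted p = 2.95e-05 in limma). Pnpla2 differed by 0.26, with all CD73+CD105+ arrays above all CD73+CD105- arrays, and did not pass (adjusted p = 0.208 in limma). The lipid droplet gene Plin1 differed by -0.11, its relative Plin4 by -0.03 and the droplet fusion gene Cidec by -0.11. Lep, the fat cell hormone that binds the Lepr product, averaged 4.10 in CD73+CD105+ cells, against 4.19 in CD73+CD105- cells, below the odorant and pheromone receptor level in both.

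Hp encodes haptoglobin, a plasma protein that binds free haemoglobin and is also known from fat cells, liver and granulocyte precursors. Its values were 9.91, 10.45 and 9.04 in CD73+CD105+ arrays, against 8.37, 8.62 and 7.76 in CD73+CD105- arrays. The groups did not overlap, yet the CD73+CD105+ arrays spanned 1.41, and only 45 of all genes spanned more in that group. The difference was the largest among the identity genes, at 1.55 (SE 0.37, 95% interval 0.69 to 2.41), and did not pass (adjusted p = 0.0908 in limma; 0.0480 without CD73+CD105+ replicate 3). Replicate 3 was lowest in both groups. The granulocyte gene S100a9 was also lowest in replicate 3, at 7.51, 7.58 and 6.77 in CD73+CD105+ arrays and 7.67, 7.51 and 6.60 in CD73+CD105- arrays. Of 10 neutrophil markers 0 passed in limma (0 at an unadjusted p under 0.05), 7 had both means below the odorant and pheromone receptor level, and the list mean ran from 5.57 to 5.91 in CD73+CD105+ and from 5.48 to 5.75 in CD73+CD105- arrays. The part of such cells in the spread of Hp was not tested.

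Among the transcription factors, Ebf3 rose, Ebf1 narrowly did not pass and Foxc1 was nearly level. Ebf3 had values of 8.06, 7.83 and 7.94 in CD73+CD105+ arrays, against 7.18, 7.32 and 7.26 in CD73+CD105- arrays. It had tight groups, with SDs of 0.11 and 0.07. The difference was 0.69 (SE 0.08, 95% interval 0.49 to 0.88, adjusted p = 0.0129 in limma), which no longer passed without CD73+CD105+ replicate 1 (0.0613) or CD73+CD105- replicate 1 (0.0642). It was 0.0541 with the replicate 1 term and 0.0512 with the replicate block.

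Ebf1, a factor of B cell and of stromal development, had values of 9.57, 9.39 and 9.75 in CD73+CD105+ arrays, against 8.18, 7.52 and 8.69 in CD73+CD105- arrays. The groups lay 0.69 apart at their nearest arrays, and the CD73+CD105- arrays spanned 1.18, more than all but 83 genes. The difference was 1.44 (SE 0.27, 95% interval 0.80 to 2.08, adjusted p = 0.0519 in limma). It passed with an adjusted p of 0.0277 without CD73+CD105- replicate 3. Of 3 B cell markers measured, Cd79a averaged 3.93 in CD73+CD105+ cells, against 3.72 in CD73+CD105- cells, and Ms4a1 averaged 4.04 in CD73+CD105+ cells, against 4.13 in CD73+CD105- cells. Cd79b lay at the odorant and pheromone receptor level, with 6.02 in CD73+CD105+ cells, against 6.14 in CD73+CD105- cells.

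Foxc1, the forkhead factor of reticular cell formation, had values of 8.66, 8.89 and 8.71 in CD73+CD105+ arrays, against 8.97, 8.98 and 8.83 in CD73+CD105- arrays. The groups overlapped by 0.06. The difference was -0.17 (SE 0.09, 95% interval -0.37 to 0.03) and did not pass (adjusted p = 0.364 in limma). This interval lies wholly below those of the other 9 genes, the lowest of which is that of Il7 (0.14 to 1.07). A rise of Foxc1 by more than 0.03 was therefore outside its interval, while each of the 6 genes that rose had an interval above 0.49.

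**Figure D2:**
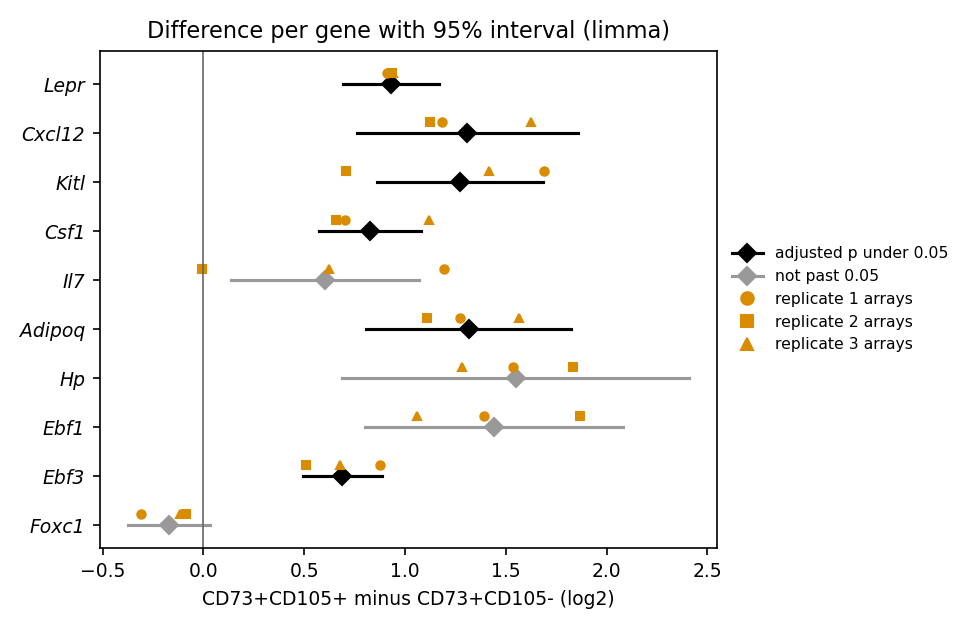
Difference of each identity gene (log2, horizontal axis) with its 95% interval from limma, in black where the adjusted p was under 0.05, and the difference within each replicate number as small orange markers. Lepr shows nearly equal differences in the 3 replicate numbers, Il7 and Kitl differ most between replicate numbers, and Foxc1 lies at -0.17.

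The spread within groups was not shared by all identity genes. In Cxcl12, Adipoq and Hp, replicate 2 was highest and replicate 3 lowest in both groups. In Lepr, replicate 3 was likewise lowest in both groups, over a narrower span (0.23 in CD73+CD105+ arrays, 0.26 in CD73+CD105- arrays). Ebf1 ran the other way, with replicate 3 highest and replicate 2 lowest in both groups. Relative to its group mean, the CD73+CD105- replicate 3 array stood at -0.54 for Cxcl12, -0.48 for Adipoq and -0.49 for Hp, and at 0.56 for Ebf1. Kitl, Il7 and Ebf3 were highest in replicate 1 and lowest in replicate 2 among CD73+CD105+ arrays, and highest in replicate 2 and lowest in replicate 1 among CD73+CD105- arrays. Over all genes, the balance of the replicate 1 arrays sets their deviations in the groups opposite to each other. Its part in the places of Kitl, Il7 and Ebf3 was not tested. In Lepr, Cxcl12, Adipoq, Hp and Ebf1 replicate 1 lay above the group mean in both groups. The 5 genes Lepr, Cxcl12, Adipoq, Hp and Ebf1 kept 1 order of the replicate numbers in both groups, as 12.9% of all genes did. With 3 arrays a group, no correlation was computed, and the labels do not say that the numbers pair samples.

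**Figure D3:**
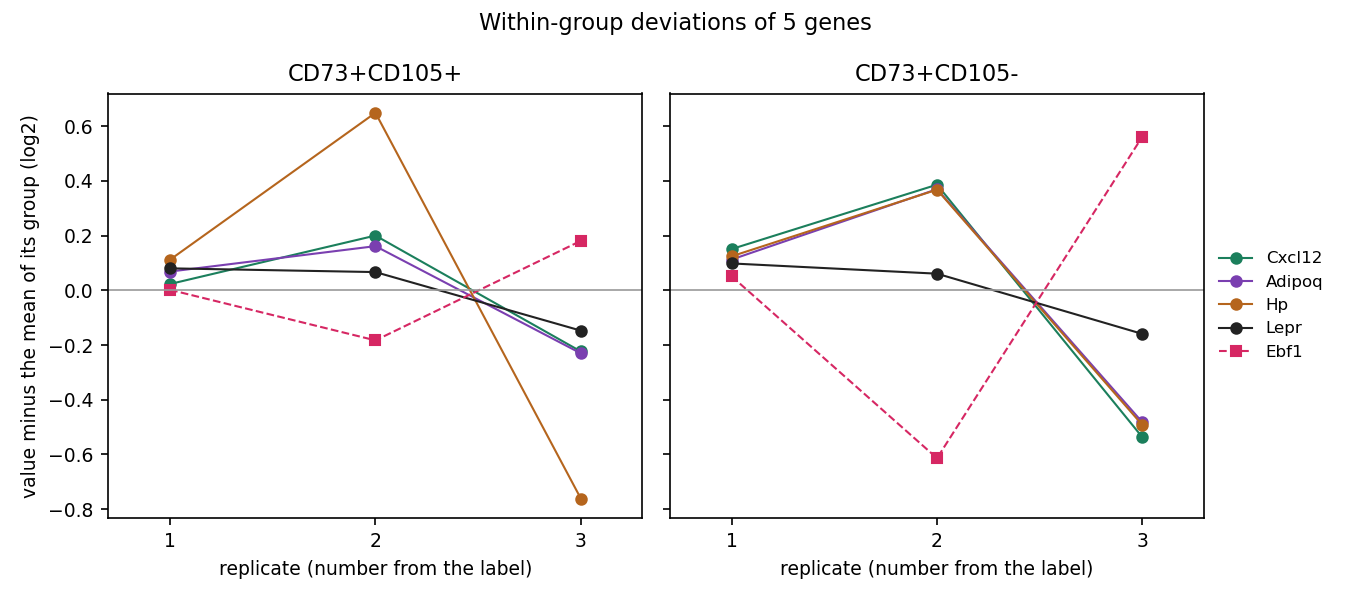
Value of 5 identity genes minus the mean of their group (log2, vertical axis) by replicate number, CD73+CD105+ on the left and CD73+CD105- on the right; lines join the values of 1 gene and stand for no order in time. Cxcl12, Adipoq, Hp and Lepr are lowest in replicate 3 of both groups, where Ebf1 is highest.

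Genes with the profile closest to Cxcl12 were looked for over all 6 arrays, by the root mean square difference after each gene's mean was subtracted. Of 18092 genes ranked, Adipoq was the closest, at 0.04. It was followed by Trf at 0.08, which encodes the iron carrier transferrin, Esm1 at 0.18, a secreted proteoglycan, Gdpd2 at 0.19, a phosphodiesterase, and Dpep1 at 0.24, a membrane dipeptidase. Dpep1 rose (1.17, adjusted p = 0.0114 in limma), and Trf (1.28, 0.0749), Esm1 (1.19, 0.0737) and Gdpd2 (1.45, 0.0514) did not pass. Lepr ranked 10 and Hp 15 in likeness to Cxcl12, whereas Ebf1 ranked 2306 and Foxc1 13236. The likeness is a description of 6 arrays that fall into 2 groups, so most of it is the difference between the groups.

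**Figure D4:**
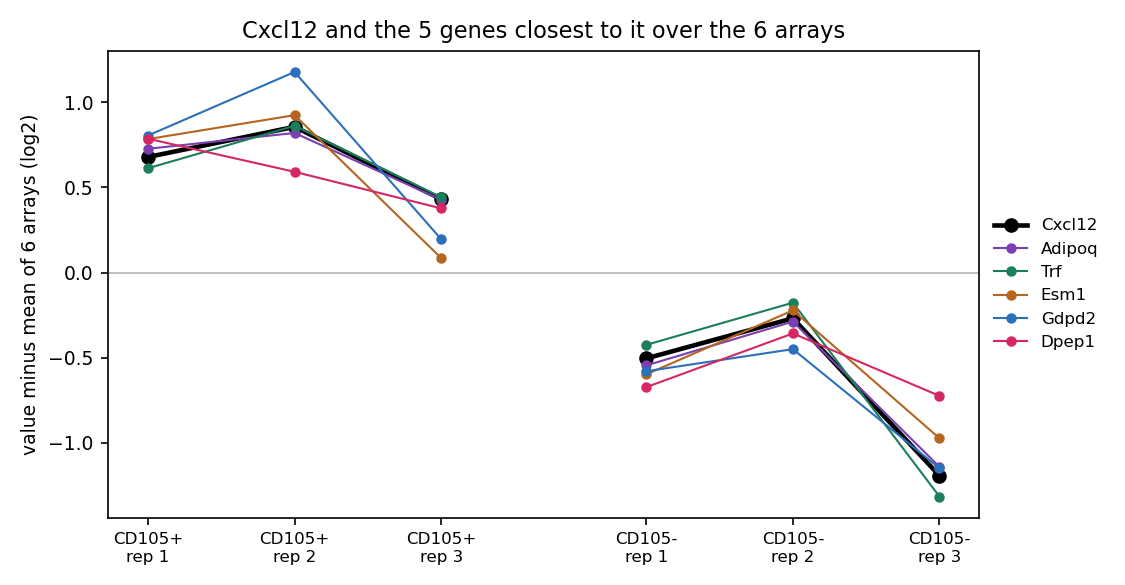
Value minus the mean of the 6 arrays (log2, vertical axis) for Cxcl12 (black) and the 5 genes closest to it, CD73+CD105+ arrays on the left and CD73+CD105- arrays on the right; lines join values of 1 gene and stand for no order in time. The Adipoq and Trf lines lie almost on that of Cxcl12, including the low value in CD73+CD105- replicate 3.

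Lepr had other neighbours. The closest were Psmb8, a subunit of the immunoproteasome (root mean square difference 0.09), Rgs16, a regulator of G protein signalling (0.11), Ms4a4d, a membrane protein (0.11), Tfpi, the inhibitor of tissue factor (0.12), and Rapgef5, an exchange factor for small GTPases (0.12). All 5 rose, with differences of 0.92, 0.88, 0.90, 0.98 and 0.98 and adjusted p-values between 0.00229 and 0.0217 in limma. Of the identity genes, Ebf3 (rank 41) and Csf1 (rank 48) were nearest to Lepr.

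Further genes known from reticular cells were also higher on balance. Of 28 such genes 5 rose, 0 fell and 23 did not pass, their median difference was 0.40, and 25 differences were above 0. Vcam1, an adhesion molecule for blood cells, rose by 1.30 (SE 0.12, adjusted p = 0.00544 in limma), with values of 10.08, 9.83 and 9.60 in CD73+CD105+ arrays, against 8.47, 8.63 and 8.52 in CD73+CD105- arrays. Lpl, the lipase that frees fatty acids from lipoproteins, rose by 1.25 (adjusted p = 0.0226), the ligand gene Bmp4 by 0.80 (0.0176), Rarres2, which encodes the chemoattractant chemerin, by 0.76 (0.0393) and the complement inhibitor gene Serping1 by 0.51 (0.0206), all in limma. Vcam1 passed in all 6 fits that left out an array, Bmp4 in 4, Lpl in 3, Rarres2 in 2 and Serping1 in 1. The count of 5 became 1 when CD73+CD105+ replicate 1 was left out, and 2 when its replicate 3 or CD73+CD105- replicate 1 was.

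Ebf2, the third EBF gene measured, had a difference of 0.63 that missed the threshold (adjusted p = 0.105 in limma), as did Kng1 (1.41, 0.0580), which encodes kininogen. The mesenchymal genes Pdgfra (0.43, adjusted p = 0.124), Pdgfrb (0.45, 0.0687) and Prrx1 (0.29, 0.320) did not pass either, nor did Cxcl14 (0.11, 0.529), a chemokine, or Apoe (-0.10, 0.599), a lipid carrier. These 7 genes were chosen for mention after their values were seen, as were Leprot, Plin4, Cidec, Lep, Cd79a, Cd79b, Ms4a1, Kit, Csf1r, Il7r, Sox6 and Emcn.

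Few receptors and ligands that act with the identity genes passed. Of 10 measured 1 rose and 0 fell, with a median difference of 0.00. Cdh13, a cadherin that binds adiponectin, rose by 0.68 (SE 0.08, adjusted p = 0.0128 in limma), with 9.32, 9.22 and 9.11 in CD73+CD105+ arrays against 8.49, 8.50 and 8.62 in CD73+CD105- arrays. It lost the call without replicate 1 of CD73+CD105+ (0.0613) or that of CD73+CD105- (0.0642) and without CD73+CD105- replicate 2 (0.0513). The adiponectin receptor gene Adipor2 had a difference of -0.69 that missed the threshold (adjusted p = 0.0801 in limma). Kit, Csf1r and Il7r, the receptors of the Kitl, Csf1 and Il7 products on blood cells, had means below the odorant and pheromone receptor level in both groups. Of 10 genes of leptin signalling 0 passed in limma (2 at an unadjusted p under 0.05), with a median of -0.10, and the largest differences were those of the phosphatase gene Ptpn2 (-0.32) and of Socs3 (-0.31), an inhibitor of the leptin signal.

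Markers of endothelial cells differed in the same direction. Of 13 endothelial markers 12 rose, with a median difference of 1.31, and the list mean ran from 7.78 to 8.08 in CD73+CD105+ arrays and from 5.82 to 6.06 in CD73+CD105- arrays. The genes of highest mean over all 6 arrays were Cdh5, a junction gene (9.50 ± 0.23 in CD73+CD105+ cells, against 6.16 ± 0.26 in CD73+CD105- cells, SD, n = 3 each), the adhesion gene Pecam1 (9.32 ± 0.29 in CD73+CD105+ cells, against 5.69 ± 0.32 in CD73+CD105- cells) and Plvap, a gene of the diaphragms of vessel walls (7.97 ± 0.39 in CD73+CD105+ cells, against 6.73 ± 0.20 in CD73+CD105- cells). The endothelial sialomucin gene Emcn had the largest difference of the list, 4.61 (9.19 ± 0.28 in CD73+CD105+ cells, against 4.58 ± 0.54 in CD73+CD105- cells). Of 10 pericyte and smooth muscle markers 4 rose (median 0.44), of 9 fibroblast markers 0 (median 0.44; 6 at an unadjusted p under 0.05 in limma), and of 6 osteoblast markers 0 (median 0.03; 2 unadjusted). Of 10 chondrocyte markers 1 fell, Sox6 (-0.56), and the median was -0.29 (6 at an unadjusted p under 0.05 in limma). Of the 10 differences 0 were above 0, and 5 genes were lower in CD73+CD105+ arrays without overlap. These markers were bright in both groups. Their list mean lay between 10.86 (CD73+CD105+ replicate 3) and 11.52 (CD73+CD105- replicate 2), against 7.63 to 8.84 for the identity genes. None of 9 other leukocyte markers and none of 4 erythroid markers passed in limma (1 and 0 unadjusted). The part of endothelial cells in the rise of Cxcl12, Kitl and Csf1, which they can also make, was not tested.

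**Figure D5:**
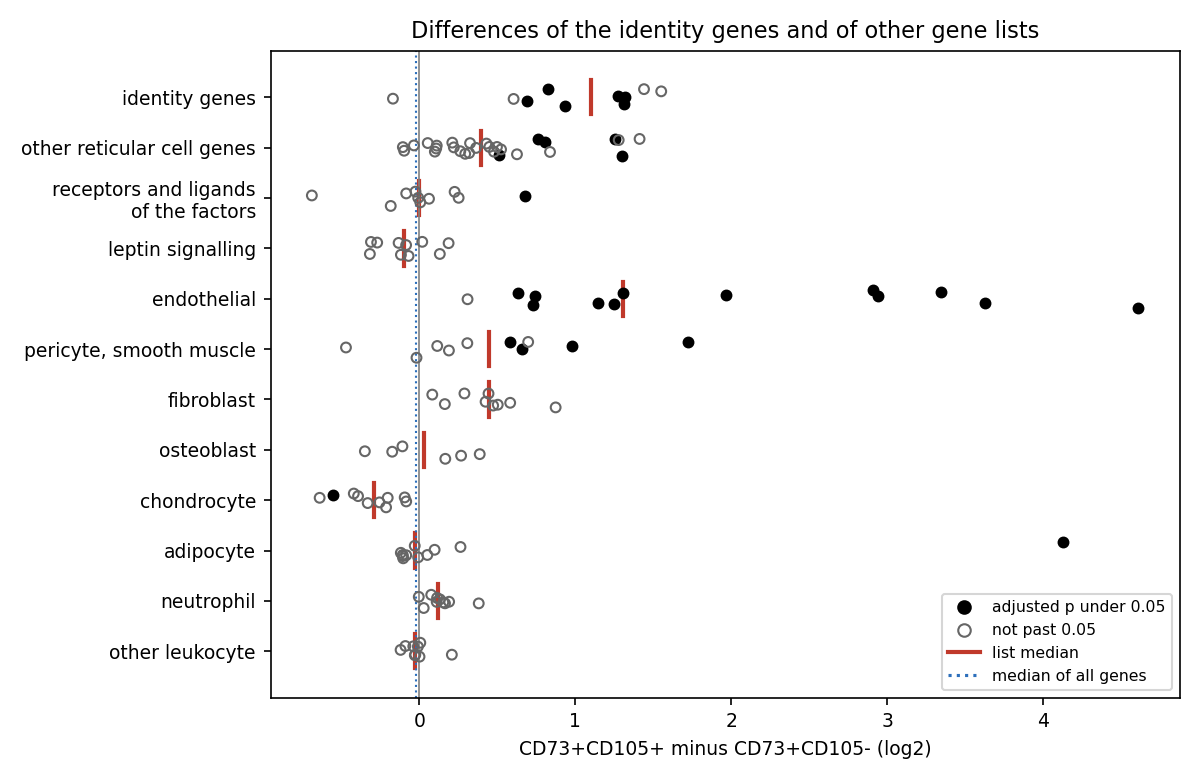
Difference of each gene (log2, horizontal axis) in the identity gene list and 11 other lists, filled where the adjusted p was under 0.05, with the list median in red and the median of all genes (-0.02) dotted. The identity genes have a median of 1.10, next to 0.40 for other reticular cell genes and 1.31 for endothelial markers.

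Eng, which encodes the sorted protein CD105, averaged 8.06 ± 0.25 in CD73+CD105+ cells, against 6.30 ± 0.21 in CD73+CD105- cells (SD, n = 3 each; adjusted p = 0.00322 in limma), as the labels say. Array medians lay between 6.27 and 6.35. In replicates 2 and 3 alone, where no identity gene passed in limma (8 at an unadjusted p under 0.05), the differences were 0.94 for Lepr, 1.37 for Cxcl12, 1.06 for Kitl, 0.89 for Csf1, 1.34 for Adipoq and 0.59 for Ebf3.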

How the data were processed

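Per the labels, total RNA of the sorted cells carried 1 label (biotin), and each sample had its own array. The authors deposited log2 values for each probe set, made with RMA (background correction, quantile normalization and probe summary), per the submitters' processing notes. The sources used here give no software version or build, and detection calls were not used. Of 35556 probe sets, 21789 had 1 gene symbol, 1621 several and 12146 none in the platform annotation, and 21698 matched RefSeq by Entrez ID. Where a gene had several (999 genes), the brightest on average was kept, giving 19938 genes. Groups came from the sample titles. Differences were tested with limma 3.58.1 in R 4.3.3 (lmFit, eBayes, two-sided, no block), adjusted by Benjamini-Hochberg over all genes, threshold 0.05, with no filter on dim genes. The fit was tested on simulated data with independent noise in each array and without the replicate 1 balance. That test does not cover what the balance does to p-values. The number of arrays limits the precision, with a median SE of 0.0928. The rule named the 10 members, every gene of the 3 related lists past the threshold (else the 2 largest differences), up to 3 bright genes per marker list, and the 5 genes closest to Lepr and to Cxcl12. Members and lists were chosen with earlier results of these data known. Alternatives were other normalizations, filters, probe set rules, variance models, a replicate block, a replicate 1 term and leaving out arrays. Sequences are RefSeq's, with its GRCm38.p6 build.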

Additional observations from a re-analysis of the deposited data

How the results depend on the processing

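Over 15 alternatives, 0 of 239 differences of the 16 genes tested (10 identity genes and 6 related genes) changed direction, 170 stayed on their side of the threshold, 61 lost and 8 gained a call. The replicate block, replicate 1 term, dim gene filter, mean of probe sets and intensity trend left these differences unchanged. No direction could change under those settings. The count of 6 identity genes was 1 with a replicate 1 term, 0 in replicates 2 and 3 only (8 at an unadjusted p under 0.05 in limma) and 1 to 6 when each array was left out; it was 5 to 8 under the other settings. The count of 5 other reticular cell genes was 1 with the replicate 1 term, 12 with array weights, 0 in replicates 2 and 3 only (16 unadjusted) and 1 to 6 when each array was left out. The count of 363 over all genes was 215 with the replicate block, 101 with the replicate 1 term, 1331 with array weights, 29 in replicates 2 and 3 only and 86 to 293 when each array was left out. With the replicate block 7 identity genes passed, Lepr, Cxcl12, Kitl, Csf1, Adipoq, Hp (0.00628) and Ebf1 (0.0193) and not Ebf3 (0.0512). Whether the numbers pair samples is not given by the labels. Deviations of same-numbered arrays correlated at -0.88, 0.01 and 0.10 across genes, of which -0.88 follows from the balance of the replicate 1 arrays. CD73+CD105+ replicate 2 correlated at -0.37 with CD73+CD105- replicate 3, and CD73+CD105+ replicate 3 at -0.32 with CD73+CD105- replicate 2. The balance also shapes every correlation with a replicate 1 array. Among replicates 2 and 3, same-numbered arrays correlated higher across the groups (0.01 and 0.10) than arrays of unlike number (-0.37 and -0.32). Whether pairing of samples lies behind this was not tested. Ebf1 also passed among genes above the odorant and pheromone receptor level (0.0431), with an intensity trend (0.0441) and with array weights (0.0146), and Hp with array weights (0.0319). The cause of these changes was not tested. Fits that leave arrays out have fewer arrays, and this was not separated from the values of the arrays left out. Il7 lay below that receptor level and so has no value with that filter.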
